A study of Mus musculus with 19 samples.

Results

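Among 60567 rows of normalized mRNA levels, 34671 carried no gene symbol, and 1537 of these were selected on a mean level of at least 100 in the 7 samples of astrocytes from wild-type mice (WT-GFP). These 1537 unnamed loci are described here by their length, position, detection and level. Because they were chosen by their mean in WT-GFP astrocytes, that mean is given as a description and was not tested. The RNA came from hippocampal cells of male mice aged 9 months on a C57BL/6J background, either APP/PS1dE9 mice (APP) or their non-transgenic littermates (WT). APP mice, a model of amyloid deposition, carry transgenes that include an App gene, part mouse and part human, with the Swedish mutations. At 3 to 4 months of age, an AAV of serotype 9 with the gfaABC1D promoter, a synthetic promoter derived from that of GFAP, had been injected in the CA1 region, and GFP+ cells were sorted 6 months later. AAV-GFP had been given to the mice of the 7 WT-GFP and 4 APP-GFP samples, and AAV encoding murine SOCS3 together with AAV-GFP, at the same total titer, to those of the 5 APP-SOCS3 samples. GFP- cells (n = 3) came from WT-GFP mice alone and pooled microglia, neurons, oligodendrocyte precursor cells and astrocytes without virus. The numbers of GFP+ samples equal the numbers of mice given for these groups, but the hippocampi of a mouse were sorted separately and the labels do not name the mouse of a sample, so p-values measure only the spread between these samples.

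A row without a symbol is not necessarily an unknown gene. Reads from introns of unspliced transcripts, from long 3′ ends, from antisense or divergent noncoding transcripts, from processed pseudogenes (copies of spliced mRNAs inserted in the genome) and from nuclear copies of mitochondrial DNA can all fall on intervals that carry no name of their own. Long noncoding RNAs (lncRNAs) are transcripts with no known protein product, and many are made in few cell types. Where a locus is nearly identical to another gene, a short read cannot be assigned to one of them with certainty. How such reads were treated, and whether the strand of the reads was used, is not given in the sources used here. Reads from a locus and from its near-identical copy or antisense partner therefore cannot be told apart.

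Some sequences show how close these loci can be to named genes. The first pair is 61 bases of the Gm4735 locus (chr2:80837836-80837896, plus strand) and of Eno1 (chr4:150246598-150246658, plus strand, within its coding sequence) in GRCm38, with the base that differs in capitals. Eno1 encodes alpha-enolase, an enzyme of glycolysis, and Gm4735 is annotated as a pseudogene.
Gm4735: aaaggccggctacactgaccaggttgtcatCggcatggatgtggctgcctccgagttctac
Eno1: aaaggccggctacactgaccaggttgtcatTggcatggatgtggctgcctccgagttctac
Over the 902 aligned bases, Gm4735 differed from Eno1 at 2 bases, and 8 exons of Eno1 were joined in the 1 exon of Gm4735.

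The next pair is 60 bases of the Gm29216 locus on chromosome 1 (chr1:24615913-24615972, minus strand) and of the mitochondrial gene mt-Co1 (chrM:6606-6665, plus strand), which encodes a subunit of cytochrome c oxidase. No base differed, so none is in capitals, and all 263 bases of this locus occurred in mt-Co1 without a mismatch.
Gm29216: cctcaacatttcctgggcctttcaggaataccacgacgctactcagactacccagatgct
mt-Co1: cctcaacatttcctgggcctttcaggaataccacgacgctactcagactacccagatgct

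Some of the shortest loci are shown because they are shorter than 1 read. They lie in Gm8399 (chr13:81065674-81065694, plus strand), Tubb2a (chr13:34074961-34074981, minus strand), F3 (chr3:121729361-121729381, plus strand) and Gm1821 (chr14:46084139-46084160, plus strand). Gm8399 and Gm1821 are pseudogenes of cytoplasmic actin and of ubiquitin, Tubb2a encodes a beta-tubulin, and F3 encodes tissue factor, which starts coagulation. Other loci were also shorter than a read, among them one in the pseudogene Gm6055 (chr14:48079567-48079588), as long as that of Gm1821.
Gm8399: tgagcgcaagtactcagtctg
Tubb2a: ccggggcagccagcagtaccg
F3: caagtgcttctcgaccacaga
Gm1821: tgaagaccctgaccggcaagac
All bases of the Gm8399 locus were found in transcripts of 7 genes, of which 1, Actg1, is protein-coding. The Tubb2a sequence occurred in transcripts of 4 beta-tubulin genes, the Gm1821 sequence in transcripts of 3 genes including Ubb, and the F3 sequence in F3 alone.

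The last sets belong to loci with the largest differences between groups. Gm31614 (chr9:46830444-46830543, plus strand) and Gm36742 (chr16:39188807-39188906, minus strand) are lncRNA genes whose loci had the highest ratios of APP-GFP astrocytes to GFP- cells, and 100 bases of exon sequence from each locus are given.
Gm31614: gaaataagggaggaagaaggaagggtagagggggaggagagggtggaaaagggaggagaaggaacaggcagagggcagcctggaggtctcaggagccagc
Gm36742: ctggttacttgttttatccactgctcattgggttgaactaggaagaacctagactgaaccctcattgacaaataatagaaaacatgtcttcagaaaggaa
Hspa1a and Hspa1b encode the heat-inducible chaperone Hsp70, and their loci fell together in APP-SOCS3 astrocytes. The 250 bases before each start are from RefSeq on GRCm38.p6 (Hspa1a chr17:34972157-34972406 and Hspa1b chr17:34959239-34959488, minus strand), with each match to GAANNTTC in capitals. This palindrome is the core of the element that heat shock factors bind.
Hspa1a promoter: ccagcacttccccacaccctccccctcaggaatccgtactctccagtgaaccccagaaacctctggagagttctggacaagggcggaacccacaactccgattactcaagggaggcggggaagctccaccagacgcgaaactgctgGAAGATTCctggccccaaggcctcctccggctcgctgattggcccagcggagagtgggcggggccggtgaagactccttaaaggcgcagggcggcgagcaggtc
Hspa1b promoter: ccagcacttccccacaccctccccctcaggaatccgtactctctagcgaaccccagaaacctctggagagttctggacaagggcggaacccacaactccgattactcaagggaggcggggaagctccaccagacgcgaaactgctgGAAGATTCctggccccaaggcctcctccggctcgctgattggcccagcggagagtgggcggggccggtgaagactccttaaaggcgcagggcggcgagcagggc
The promoters differed at 3 bases and held 1 match each, and 2199 of 32851 promoters of this length (6.69%) held the motif on either strand. All 250 promoter bases of Hspa1b lay inside its unnamed locus, and none of those of Hspa1a lay inside a locus.

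Sequencing depth was close between samples, with 19331876 to 32621917 reads counted per sample and 1 read worth 0.756 to 1.18 units of level. The labels were checked first. All 12 astrocyte markers were higher in APP-GFP and in APP-SOCS3 astrocytes than in GFP- cells, and their summed level was 663403 to 1102334 in GFP+ samples and 22457 to 76352 in GFP- cells. The Socs3 row was between 13296 and 37750 in APP-SOCS3 astrocytes and between 438 and 1639 in APP-GFP astrocytes, with no overlap (log2 fold change 4.20 ± 0.388 (SE), adjusted p = 0.00735, limma). A few samples stood apart. WT-GFP 2 had the highest share of its level in the unnamed loci (7.72%, against 4.38% to 6.81% in the other 18 samples) and on mitochondrial loci (3.28%, against 0.878% to 2.36%). APP-GFP 2 and WT-GFP 3 had the fewest detected loci, 1307 (85.0%) and 1353 (88.0%), and the other samples had 94.3% to 99.9%.

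The unnamed loci were short and mostly lay in known genes. Their median length was 2093 bases (range 21 to 887933), against 21645 bases for the 10668 rows with a symbol and the same minimum level. Lengths of 1000 to 5000 bases made up 974 loci (63.4%), while 66 (4.29%) were under 200 bases and 90 (5.86%) were over 10000 bases. The longest, chr8:19695152-20583084, spanned a cluster of genes and pseudogenes and had a level of 1357 ± 746 (SD, n = 7) in WT-GFP astrocytes and 2566 ± 49.1 (n = 3) in GFP- cells. On the same build, GENCODE M21 placed a gene over 1432 loci (93.2%), an exon over 1153 (75.0%) and only introns over 279 (18.2%). At least 50% of the bases were exonic in 763 loci (49.6%), and 490 (31.9%) lay wholly in exons. A coding sequence was overlapped by 579 loci (37.7%) and an annotated untranslated region (UTR) by 823 (53.5%). The end of a protein-coding transcript lay in 417 loci (27.1%) and a start in 401 (26.1%). Exons on both strands were overlapped by 285 loci, and the coordinates carry no strand.

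**Figure D1:**
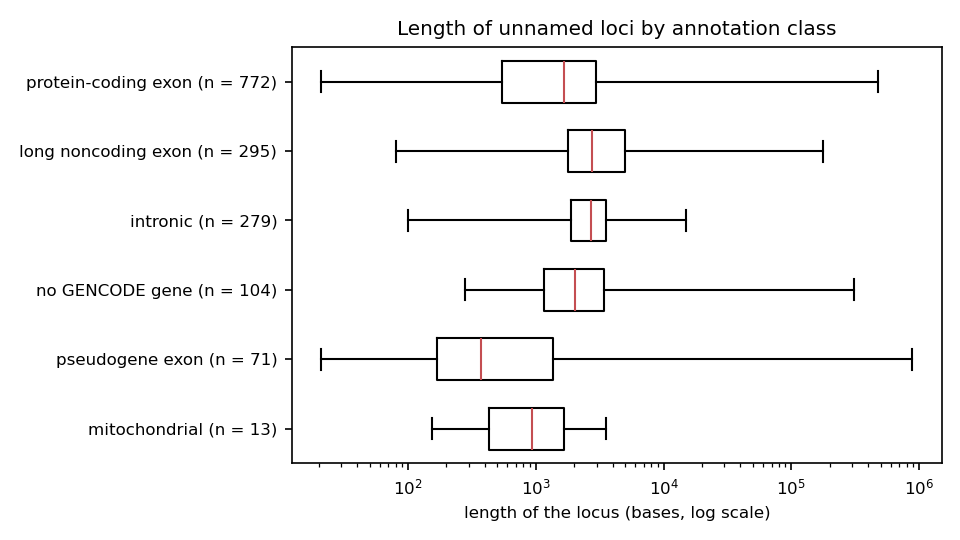
Length in bases (log axis) of each unnamed locus by class of annotation, with boxes over the middle quartiles, a red line at the median and whiskers to the shortest and longest locus. Pseudogene loci had the lowest median (373 bases), and lncRNA exon loci (2750) and intronic loci (2701) had the highest medians of the classes drawn.

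A row with a symbol overlapped 1196 loci (77.8%), and another unnamed locus overlapped 87 (5.66%). A pair of rows shared the coordinates chr11:109011640-109012117 with unequal levels, 1060 and 902 on average in WT-GFP astrocytes. No GENCODE gene overlapped 105 loci (6.83%), of which 66 overlapped a RefSeq gene. Of the 105, 58 lay within 1000 bases of the nearest GENCODE gene and 9 over 10000 bases from it (median distance 828 bases, highest 86322). The loci were spread over the chromosomes, from 117 on chromosome 7, 104 on chromosome 2 and 102 on chromosome 5 to 29 on X and 1 on Y, and 5 lay on unplaced contigs.

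Detection, taken as more than 3 reads, was common but not complete. All 19 samples detected 1110 loci (72.2%), against 8366 (78.4%) of the rows with a symbol and the same minimum level. A further 361 loci (23.5%) were detected in 17 or 18 samples, and 22 (1.43%) in 15 or fewer. Detection differed by class, since 91.5% of pseudogene loci and 84.2% of protein-coding exon loci but 38.4% of intronic loci were found in all 19 samples. These classes also differed in level, with median WT-GFP means of 309, 268 and 164. The part of level, and of the poorly detecting samples APP-GFP 2 and WT-GFP 3, in these shares was not tested. The median coefficient of variation over APP-SOCS3 samples was 21.6% for pseudogene, 25.4% for protein-coding exon, 31.3% for lncRNA exon and 51.1% for intronic loci. It was 44.5% for mitochondrial loci and 50.8% for ribosomal RNA or other exons, although all loci of both classes were found in all 19 samples. The latter class held 3 loci, of 5439, 5933 and 14759 bases. None of the ribosomal RNA repeat loci on chromosome 17 described below was among them.

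Some loci were found in few samples. The locus chr6:86004381-86009344, at 4930553P18Rik, was detected in 10 samples, with WT-GFP levels of 0 to 365 (median 56.2). An intronic locus of Man1a2 (chr3:100568319-100572066) was detected in 11 samples, and WT-GFP 2 alone stood at 723 while the WT-GFP median was 0. An intronic locus of Rabgap1 and Strbp (chr2:37532776-37535537) was detected in 12 samples. Around the threshold, chr5:74999758-75003497 (mean 100.2, samples 0 to 228) and chr17:86178607-86180253 (100.3, 0 to 524) were just inside. Just outside were chr8:123266300-123267832 (99.999, 14.8 to 314) and chr10:29206264-29210904 (99.8, 38.6 to 240.1). The sample ranges on either side overlapped widely.

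Most loci had low levels. The mean in WT-GFP astrocytes was between 100 and 200 for 686 loci (44.6%), above 1000 for 167 (10.9%) and above 10000 for 15 (0.976%). The median locus had a level of 223 in WT-GFP, 215 in APP-GFP and 230.5 in APP-SOCS3 astrocytes and 195 in GFP- cells, against 603, 593, 572 and 760.5 for the rows with a symbol. The 10 highest loci in WT-GFP astrocytes were 5 mitochondrial loci, 3 loci on chromosome 1 at nuclear copies of mitochondrial genes, Gm4735 and an exon of Itm2b, which encodes a membrane protein of neurons and glia.

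Each locus was placed in 1 class by the annotated exons it overlapped most, with ties going to protein-coding exons. Overlap with 1 exonic base sufficed, so most of a locus in an exon class can lie outside exons. The class of protein-coding exons had 772 loci (50.2%), that of lncRNA exons 295 (19.2%) and that of introns 279 (18.2%). The class without a GENCODE gene had 104 (6.77%, the last of the 105 being mitochondrial). Pseudogene exons had 71 (4.62%), the mitochondrial genome 13 (0.846%), and ribosomal RNA or other exons 3. Levels of a locus were compared with those of the row with a symbol that it overlapped most, on either strand. This was done where that row was at least 100 in every sample, which held for 844 loci. The row need not be that of the gene a locus belongs to. Copies of mitochondrial genes on chromosome 1, for example, overlapped the Lmbrd1 row. The median locus was at 17.1% of its row, and 40 were above it. The ratio of locus to row stayed within 2-fold over the 19 samples for 203 of 508 protein-coding exon loci (40%). It did so for 42 of 150 lncRNA exon loci (28%) and none of 172 intronic loci. The intronic loci were at a median of 6.36% of their row, with a median of 234.6-fold between the highest and the lowest sample. For these folds 1 was added to both levels, so a sample without reads at a locus largely sets its fold. Only 38.4% of intronic loci were detected in all 19 samples. The fold therefore cannot show whether intronic levels follow those of the gene.

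**Figure D2:**
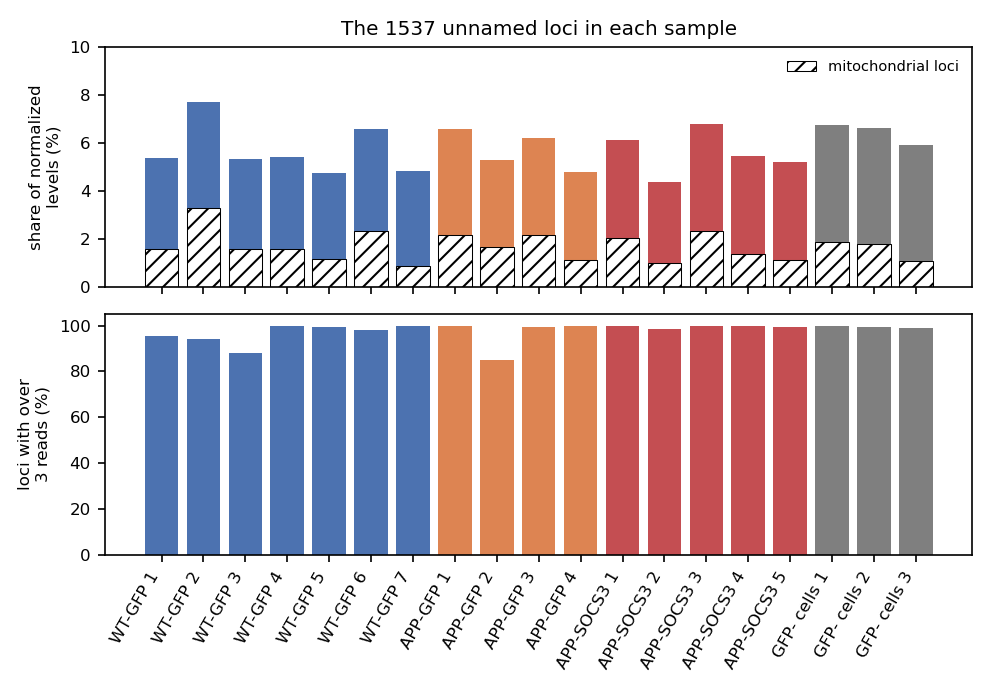
Share of all normalized levels in the 1537 unnamed loci (top, %, with the mitochondrial loci hatched) and share of the loci with over 3 reads (bottom, %) in each of the 19 samples, 1 bar per sample, coloured by group. WT-GFP 2 has the highest share (7.72%), and APP-GFP 2 (85.0%) and WT-GFP 3 (88.0%) have the fewest detected loci.

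The mitochondrial loci carry genes of the respiratory chain and the mitochondrial ribosomal RNAs. The locus of mt-Co1 (chrM:5325-6941) was the highest of all, with WT-GFP levels of 71230.5 to 333996 (median 138209.6). It was at 163136, 166423, 214756 and 88745 in the APP-GFP samples and at 181099, 92962, 198939, 112158 and 95493 in the APP-SOCS3 samples. GFP- cells had 129283, 116248 and 74169, so all 4 groups overlapped. The locus of mt-Nd5, mt-Nd6 and mt-Cytb (chrM:11742-15288) had a mean of 98057 in WT-GFP astrocytes and that of mt-Rnr2 and mt-Nd1 (chrM:1094-3841) 65718. None of the 13 mitochondrial loci passed the test between APP-SOCS3 and APP-GFP astrocytes. Over the 19 samples, the Gm29216 locus (chr1:24615710-24615972) stood at 11.2% to 22.7% of the level of the mt-Co1 locus, of which it is a copy. Its mean in WT-GFP astrocytes was 28309.7, and that of chr1:24613188-24614814 beside it, at Gm28437 and Gm10925, was 68048. The Gm28437 bases of that neighbour were 100% identical to mt-Co3. Not every copy was below its mitochondrial row, since this neighbour stood at 475.7% to 682.9% of chrM:9203-9888. That row, with a WT-GFP mean of 11109, overlaps mt-Co3 and also holds mt-Nd3.

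Pseudogene loci mostly stood below the coding genes they resemble and differed between groups in the same direction. Of the 71, 64 had a coding transcript of at least 80% identity over at least 50% of their exon bases, with a median identity of 100%, and for 56 of them the coding gene was a nuclear gene with a row of its own. In WT-GFP astrocytes 51 of the 56 were below the coding gene. Over all 19 samples, the median locus was at 17.7% of its coding gene. The coding gene differed by over 1.5-fold between the means of APP-GFP astrocytes and GFP- cells for 38 of the 56, and all 38 loci were on the same side. Both values of a pair come from the same libraries and, where sequences are identical, may hold the same reads, so the likeness is a description.

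**Figure D3:**
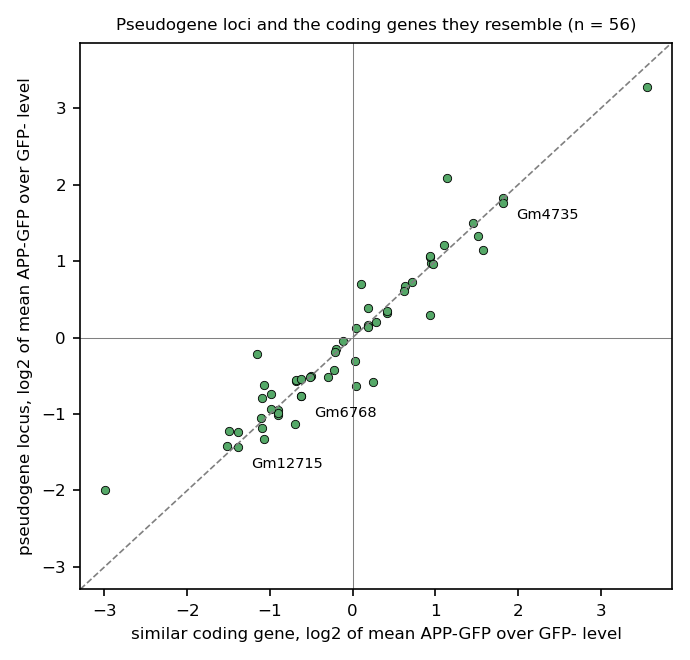
Log2 ratio of mean level in APP-GFP astrocytes to that in GFP- cells for 56 pseudogene loci (y axis) and for the coding gene each resembles (x axis), 1 point per locus, with the dashed line at equal values. The 38 loci whose coding gene differs by over 1.5-fold lie on the same side of 0 as that gene.

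The Gm4735 locus (chr2:80836946-80838042, 1097 bases), which resembles Eno1, was the highest nuclear locus apart from those that match mitochondrial DNA. Its level was 35528 to 58713 in WT-GFP astrocytes (median 46466), 52079, 49128, 54420.3 and 40815 in APP-GFP astrocytes, and 53376, 53230.2, 47448, 48802 and 42080.2 in APP-SOCS3 astrocytes. GFP- cells had 17718, 12773 and 11067, below every GFP+ sample. APP-GFP astrocytes exceeded GFP- cells 3.55-fold (log2 fold change 1.85 ± 0.19 (SE), adjusted p = 0.000898, limma). Between APP-SOCS3 and APP-GFP astrocytes the locus did not pass the test (log2 fold change 0.00). It stood at 86.3% to 99.2% of the Eno1 row in every sample.

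Other pairs also had narrow ratios. Gm15459 (chr5:5782335-5782751) was at 20.0% to 23.6% of Hspa8, a constitutive chaperone, Ftl2-ps (chr4:125504080-125505001) at 29.4% to 36.7% of Ftl1, the ferritin light chain, and Gm12715 (chr4:103563800-103564168) at 38.6% to 47.3% of Actg1, a cytoplasmic actin. Gm6768 (chr12:119259267-119262413) was at 86.2% to 106.7% of Ncoa4, which delivers ferritin for degradation. Each of these loci had a higher mean in GFP- cells than in the GFP+ groups. The short loci shown above were also narrow. The Tubb2a locus stood at 1.45% to 2.14% of the Tubb2a row and the F3 locus at 1.78% to 2.16% of the F3 row, although the F3 locus was at 467.5 to 658 in WT-GFP astrocytes while GFP- cells had 108, 42.4 and 14.1.

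The comparison of APP-SOCS3 with APP-GFP astrocytes asks which loci respond to SOCS3, an inhibitor of the JAK-STAT pathway, in mice with amyloid. Among the 1537 loci, 46 (2.99%) rose and 23 (1.5%) fell. Calls required a fold change of 1.5 or more and p not above 0.05 (limma on log2(level + 1)). The shares over all 22844 rows tested were 2.33% higher and 3.37% lower, and over the rows with a symbol and the same minimum level 1.24% and 4.05%. Every APP-SOCS3 sample was above every APP-GFP sample for 22 loci (1.43%, against 0.924% of all rows and 0.816% of those with a symbol) and below for 9 (0.586%, against 1.09% and 1.35%). The median log2 fold change was 0.14 over the loci and 0.08 over all rows.

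These calls rest on unadjusted p-values. With Benjamini-Hochberg adjustment over all rows no locus passed 0.05 with limma (smallest adjusted p = 0.14, 74 loci with an unadjusted p under 0.05) or with the quasi-likelihood test of edgeR (52 loci with an unadjusted p under 0.05), and DESeq2 called 2 higher and 8 lower. The count that rose depended on single samples. It was 82 without APP-GFP 1, 94 without APP-GFP 4, 28 without APP-SOCS3 1, 27 without APP-SOCS3 3, 23 without APP-SOCS3 4 and 17 without APP-SOCS3 5, and the count that fell was 13 without APP-GFP 3.

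The loci that fell lay mostly in named genes that fell as well. Of the 23, 22 overlapped a row with a symbol, and for 16 that row was also called lower. Of the 46 that rose, 32 overlapped such a row, and 1 row was called higher. That row was Socs3, which the AAV of the APP-SOCS3 mice also encoded. Over the rows with a symbol and the same minimum level, 4.05% were called lower and 1.24% higher. A locus and the row it overlaps may hold the same reads, so the likeness is a description. By class, with the share of the loci of that class, the 23 comprised 14 in protein-coding exons (1.81%) and 5 in lncRNA exons (1.69%). A further 3 were in introns (1.08%) and 1 in a pseudogene (1.41%). The 46 comprised 15 in protein-coding exons (1.94%), 12 in lncRNA exons (4.07%) and 12 in introns (4.3%). The others were 5 without a GENCODE gene (4.81%), 1 in a pseudogene (1.41%) and 1 of the 3 of other exons. The mean in GFP- cells was above that in APP-GFP astrocytes for 19 of the 23 loci that fell, 23 of the 46 that rose and 630 of all 1537 loci (41.0%).

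The lowest p among the loci that fell belonged to Zfp36 (chr7:28376569-28380284, 3716 bases, 93.4% exonic). Zfp36 encodes tristetraprolin, which binds AU-rich elements and promotes mRNA decay, and the antisense gene Gm44710 overlaps it. The locus was at 1748, 3304, 3493 and 2059 in APP-GFP astrocytes and at 1113, 879.9, 956, 779 and 617 in APP-SOCS3 astrocytes, with no overlap. The means were 2651 ± 876 (SD, n = 4) and 869 ± 186 (n = 5), a 3.05-fold decrease (log2 fold change -1.57 ± 0.251 (SE), unadjusted p = 6.02e-05, adjusted p = 0.14, limma). In an exact 2-sided permutation test p was 0.0159, the smallest that 5 against 4 samples can give. WT-GFP samples ranged from 815 to 3644 (median 1828) and GFP- cells had 24945, 27826 and 43033. The level was 90.3% to 108.7% of the Zfp36 row.

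The Hspa1b and Hspa1a loci, whose promoters are shown above, fell further. Hspa1b (chr17:34957618-34959819, 2202 bases) was at 1676, 6059, 7068 and 1789 in APP-GFP astrocytes and at 762, 622, 495, 649.9 and 212 in APP-SOCS3 astrocytes. Its means were 4148 ± 2819.7 (SD, n = 4) and 548 ± 211 (n = 5), a 7.57-fold decrease (log2 fold change -2.74 ± 0.506 (SE), adjusted p = 0.278, limma). All APP-SOCS3 samples were below all APP-GFP samples, and the 2 higher APP-GFP samples were APP-GFP 2 and 3.

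Hspa1a (chr17:34969784-34971386, 1603 bases) was at 1341, 5141, 7049 and 1865 in APP-GFP astrocytes and at 804, 682, 751, 703 and 214 in APP-SOCS3 astrocytes, with means of 3849 ± 2716 (SD, n = 4) and 631 ± 237 (n = 5). The decrease was 6.1-fold (log2 fold change -2.43 ± 0.53 (SE), adjusted p = 0.472, limma), again with no overlap. GFP- cells had 56481, 47561 and 79715 at Hspa1a and 59736, 42213 and 87192 at Hspa1b. The loci were 99.0% identical over 1427 bases, so their reads cannot be told apart with certainty. Each was at 57.0% to 87.6% of the row named for both genes, which fell with them (log2 fold change -2.55).

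Loci at Inpp5d and Tmem204 came next by p among those that fell without overlap. Inpp5d encodes the inositol phosphatase SHIP1 of blood cells and microglia, and its locus (chr1:87718606-87720869) had 159, 363, 163 and 135 in APP-GFP astrocytes and 34.2, 38.1, 86.0, 53.9 and 56.3 in APP-SOCS3 astrocytes (3.82-fold, log2 fold change -1.87 ± 0.486 (SE), adjusted p = 0.576, limma). The locus at chr17:25056931-25058827 overlapped Tmem204, a membrane protein gene of endothelial cells, and Ift140, which encodes a ciliary transport protein. It had 206, 531, 499.6 and 299 in APP-GFP astrocytes and 194, 116, 164, 68.6 and 153 in APP-SOCS3 astrocytes (2.76-fold, log2 fold change -1.44 ± 0.415 (SE), adjusted p = 0.602, limma). The Tmem204 row fell with it (log2 fold change -1.27), and the value for the Ift140 row was 1.94 ± 1.51 (SE).

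Markers of other cells moved in the same direction in this comparison. All 12 microglial markers fell (median log2 fold change -1.99), with a summed level of 17273 to 94564 in APP-GFP astrocytes, 8580.2 to 16795 in APP-SOCS3 astrocytes and, in GFP- cells, 121677 to 204741. All 8 endothelial markers fell (median -2.69), with sums of 6175 to 35241, 1316 to 6578 and 135301 to 217145. Lower calls were also made for 2 of 5 mural markers, 3 of 7 neuronal, 1 of 5 oligodendrocyte, 0 of 4 oligodendrocyte precursor and 2 of 4 perivascular macrophage markers tested, and 1 of 12 astrocyte markers. No marker of these lists rose, and none was at 0 in all GFP+ samples. The part of these cells in the fall of the loci was not tested. In bulk samples, fewer cells of a type and less RNA per cell cannot be told apart.

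Among the loci that rose without overlap, the Socs3 locus had the lowest p. It covers 442 bases (chr11:117967131-117967572), of which 17 are coding and the rest 3′ UTR, and had 242, 87.3, 309.6 and 219.7 in APP-GFP astrocytes and 573, 1377, 539, 590.1 and 575 in APP-SOCS3 astrocytes. The rise was 3.41-fold with no overlap (log2 fold change 1.80 ± 0.41 (SE), adjusted p = 0.522, limma, exact permutation p = 0.0159). The whole Socs3 row rose more, by a log2 fold change of 4.20. The AAV of the APP-SOCS3 mice encoded murine SOCS3, so the Socs3 row may hold reads of the vector. The part of the vector in the rise of the row or the locus was not tested. The locus was 3.58% to 4.05% of the Socs3 row in APP-SOCS3 astrocytes. This was below the 18.9% to 21.1% in APP-GFP, the 16.8% to 22.7% in WT-GFP astrocytes and, in GFP- cells, the 19.3% to 19.4%.

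The 4 loci next by p among those that rose without overlap had low levels. An intronic locus of Rnh1, the ribonuclease inhibitor (chr7:141171080-141171628), had 382, 232, 345 and 344 in APP-GFP astrocytes and 552, 422, 757, 635 and 780.4 in APP-SOCS3 astrocytes (1.93-fold, log2 fold change 0.94 ± 0.258 (SE), adjusted p = 0.577, limma). The Rnh1 row gave a log2 fold change of -0.04. A locus that overlaps Mir6236 (chr9:110267878-110282636) had 203, 57.9, 78.2 and 136 against 226, 458, 220.0, 258 and 307 (2.47-fold, adjusted p = 0.64, limma). A locus of Fmn2, a formin that nucleates actin (chr1:174501523-174503609), rose 1.75-fold, from 238 ± 34.9 (SD, n = 4) to 417 ± 111 (n = 5), with an adjusted p of 0.646 (limma). An intronic locus of Plcl1, an inactive relative of phospholipase C (chr1:55429220-55431467), rose 2.65-fold, from 79.3 ± 25.1 (SD, n = 4) to 210.2 ± 128 (n = 5), with an adjusted p of 0.677 (limma). Plcl1 in APP-SOCS3 5 stood at 432, above the next sample at 200, and without it the call was lost (log2 fold change 0.98, unadjusted p = 0.0534, limma).

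**Figure D4:**
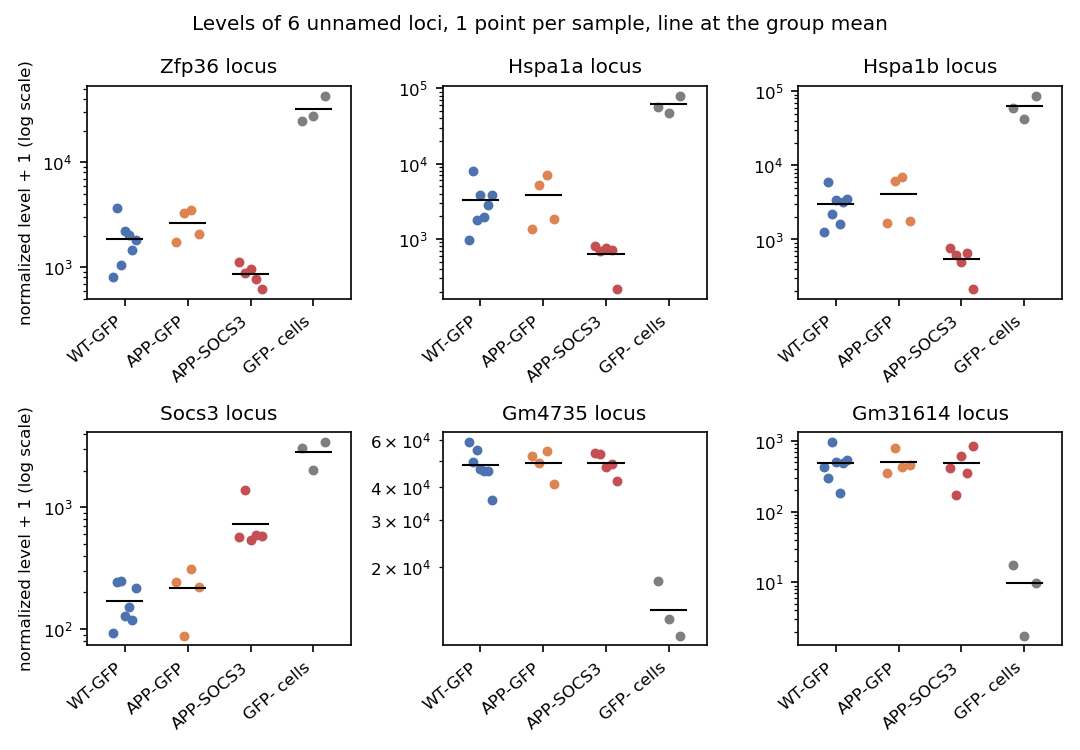
Normalized level + 1 (log scale, each panel with its own range) of the Zfp36, Hspa1a, Hspa1b, Socs3, Gm4735 and Gm31614 loci in astrocytes of the 3 GFP+ groups and in GFP- cells, 1 point per sample, with a line at the group mean. APP-SOCS3 samples lie below all APP-GFP samples for Zfp36, Hspa1a and Hspa1b and above them for Socs3, while Gm31614 is below 20 in every GFP- sample.

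APP-GFP and APP-SOCS3 astrocytes were each compared with the same 3 samples of GFP- cells, so these comparisons are not independent, and genotype and cell type cannot be told apart in them. In APP-GFP astrocytes 324 of 1536 loci tested (21.1%) were higher than in GFP- cells and 212 (13.8%) were lower, against 10% and 32.8% of all rows. Since the loci were chosen for their level in astrocytes, the rows with a symbol and the same minimum are the closer background, and of these 19.4% were higher and 25.7% lower. In APP-SOCS3 astrocytes 517 loci (33.6%) were higher and 271 (17.6%) lower, against 14.4% and 39.1% of all rows and 24.0% and 33.7% of those with a symbol. All samples of the one group were above all of the other for 361 loci higher in APP-GFP astrocytes (23.5%, against 11.3% of all rows and 21.2% of those with a symbol) and 273 lower (17.8%, against 33.5% and 30%). For APP-SOCS3 astrocytes these were 478 loci higher (31.1%, against 13.7% and 24.2%) and 264 lower (17.2%, against 34.8% and 32.9%). After adjustment 231 of 1536 loci passed as higher and 151 as lower in APP-GFP astrocytes. Of the 10668 rows with a symbol 1735 and 1996 passed, and of all 26586 rows 2089 and 5938. In APP-SOCS3 astrocytes 468 and 254 of 1537 loci passed. Of the 10667 rows with a symbol 2629 and 3444 passed there, and of all 26807 rows 3678 and 9445. The balance depends on scaling. With totals made equal, 269 loci were higher and 272 lower in APP-GFP astrocytes, and 445 and 336 in APP-SOCS3 astrocytes. With upper quartiles made equal, 604 loci were higher and 78 lower in APP-GFP astrocytes, and 899 and 113 in APP-SOCS3 astrocytes. Calls among all rows were not counted under these scalings, so these counts have no background beside them. The median log2 fold change of all rows was -1.10 for APP-GFP and -0.81 for APP-SOCS3 astrocytes, or -1.29 and -0.99 with equal totals. For the rows with a symbol and the same minimum it was -0.31 and -0.22, or -0.48 and -0.38 with equal totals. For the loci it was 0.04 and 0.32, or -0.13 and 0.15 with equal totals.

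The calls are given by class, and differences between classes and the effect of scaling on single classes were not tested. The rows with a symbol and the same minimum had 19.4% higher and 25.7% lower in APP-GFP astrocytes. In APP-SOCS3 astrocytes they had 24.0% and 33.7%. Of the lncRNA exon loci, 95 of 294 (32.3%) were higher in APP-GFP astrocytes and 27 (9.18%) lower, and in APP-SOCS3 astrocytes 138 of 295 (46.8%) were higher and 41 (13.9%) lower. Loci without a GENCODE gene, most of which overlapped a RefSeq gene, had 27 of 104 (26.0%) higher and 3 (2.88%) lower in APP-GFP, and 54 (51.9%) and 5 (4.81%) in APP-SOCS3 astrocytes. Protein-coding exon loci had 18.9% and 18.7% in APP-GFP and 27.2% and 22.2% in APP-SOCS3 astrocytes, called higher and lower. Pseudogene loci had 16 of 71 higher and 21 lower in APP-GFP and 16 higher and 29 lower in APP-SOCS3 astrocytes.

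**Figure D5:**
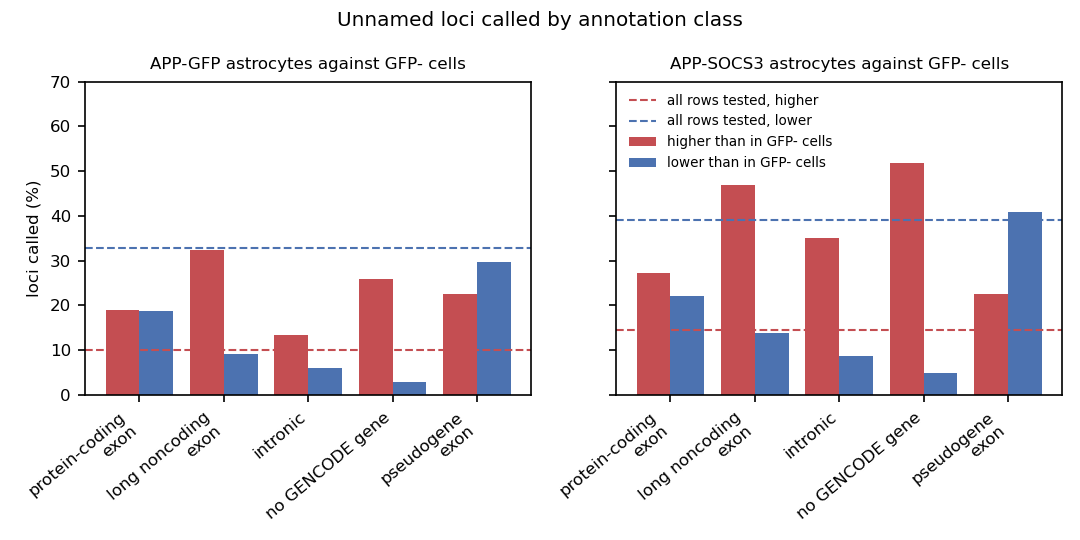
Share of the unnamed loci of 5 classes (%) called higher (red) or lower (blue) in APP-GFP (left) and APP-SOCS3 astrocytes (right) than in GFP- cells, with dashed lines at the shares over all rows tested. Loci in lncRNA exons and those without a GENCODE gene have more higher than lower calls (32.3% against 9.18%, and 26.0% against 2.88%, in APP-GFP astrocytes). The closer background, rows with a symbol and the same minimum level, is not drawn (19.4% higher and 25.7% lower in APP-GFP, 24.0% and 33.7% in APP-SOCS3 astrocytes).

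The highest ratios of APP-GFP astrocytes to GFP- cells belonged to lncRNA loci. The Gm31614 locus (chr9:46830444-46835983, 5540 bases) had 346, 785, 424 and 454 in APP-GFP and 406, 172, 607, 356 and 853 in APP-SOCS3 astrocytes. GFP- cells had 16.3, 0.756 (1 read) and 8.84, below every GFP+ sample, and the ratio of means was 58.1 (log2 fold change 6.16 ± 0.844 (SE), adjusted p = 0.00189, limma). The Gm36742 locus (chr16:39187483-39188939) had 410.1, 1198, 465 and 586 in APP-GFP astrocytes against 28.3, 1.51 and 17.7, a ratio of 42.0 (log2 fold change 5.77 ± 0.891 (SE), adjusted p = 0.00298, limma). No change passed the test between APP-SOCS3 and APP-GFP astrocytes for either locus.

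Next came a locus of 176263 bases at Gm7967 (chr1:98589552-98765814) with a ratio of 25.4 and one of Pantr1 (chr1:42693032-42694825) with 24.5. Pantr1 is a lncRNA transcribed divergently from the transcription factor gene Pou3f3, and its unnamed locus was 0.904% to 2.33% of the Pantr1 row. The fifth, chr14:8063260-8065245, overlapped no GENCODE gene and lay at Gm52100 in RefSeq. It had 1846, 440.2, 985 and 879 in APP-GFP astrocytes and 63.2, 68.8 and 14.1 in GFP- cells, a ratio of 21.3 (log2 fold change 4.49 ± 0.681 (SE), adjusted p = 0.00278, limma).

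Loci of known astrocyte genes were among the higher ones at larger levels, and the following were chosen after their values were seen. A locus at Hopx and its antisense gene Hopxos (chr5:77094531-77102303) was at 7065 ± 487 (SD, n = 4) in APP-GFP astrocytes and 458 ± 254 (n = 3) in GFP- cells (log2 fold change 4.09 ± 0.347 (SE), adjusted p = 0.000691, limma), and at 22.3% to 29.4% of the Hopx row. Plpp3, which encodes a lipid phosphatase, had a locus (chr4:105142832-105157972) at 10346 ± 1322 (SD, n = 4) against 1184 ± 811 (n = 3). The Mt2 locus (chr8:94170752-94173413), of a metal-binding metallothionein, was 10.6-fold and the Sox2 locus (chr3:34650472-34651271), of a transcription factor of neural progenitors and glia, 7.02-fold higher in APP-GFP astrocytes than in the GFP- fraction. A locus without a GENCODE gene at chr6:85835618-85836666, which lies at Nat8 in RefSeq, had 2786, 3206, 3172 and 3111.5 in APP-GFP astrocytes and 318, 179 and 127 in GFP- cells. In each of these 5 loci every GFP+ sample was above every GFP- sample.

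The lowest ratio belonged to a locus in an intron of Rapgef2, an exchange factor for the GTPase Rap (chr3:79159703-79163576). It had 51.6, 0, 48.5 and 98.5 in APP-GFP astrocytes and 1041, 608 and 1123 in GFP- cells, which were 18.6-fold higher. A locus of Rel, an NF-kB subunit (chr11:23736852-23740359), was 16.6-fold higher in GFP- cells, Hspa1a 15.9-fold, Hspa1b 15.2-fold and chr2:75638132-75651240, which overlapped no GENCODE gene and lay at Gm39859, a lncRNA gene, in RefSeq, 14.7-fold. APP-GFP 2 had no reads at Rapgef2 or at the last of these.

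In WT-GFP astrocytes, whose mean chose the loci, the levels are given without a test. The median log2 ratio of the WT-GFP mean to the GFP- mean was 0.38. The WT-GFP mean was at least 10 times the GFP- mean for 56 loci, and the reverse held for 9. The median log2 ratio was 0.12 against APP-GFP and 0.02 against APP-SOCS3 astrocytes.

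Long noncoding RNAs with known names were compared as a list of 40 genes, of which 37 were found and 31 tested between APP-SOCS3 and APP-GFP astrocytes. None rose and 2 fell, Meg3 (log2 fold change -2.56) and Snhg11 (-2.51), both at unadjusted p. Against GFP- cells, 4 of 34 tested were higher and 12 lower in APP-GFP astrocytes (median log2 fold change -0.93). In APP-SOCS3 astrocytes 6 of 34 were higher and 17 lower (median -0.71). Of all rows tested, 10% were higher and 32.8% lower in APP-GFP astrocytes (median -1.1). The shares of all rows in APP-SOCS3 astrocytes were 14.4% and 39.1% (median -0.81). The list thus leaned the same way as all rows, so its balance is not particular to named lncRNAs. It was the reverse of that of the unnamed lncRNA exon loci, but the list had no minimum level in WT-GFP astrocytes. Unnamed loci overlapped genes of this list 12 times. A Malat1 locus (chr19:5798036-5801628) was at 2.34% to 6.51% of the row of Malat1, a nuclear RNA of speckles. Loci of Neat1, the scaffold of paraspeckles, lay at chr19:5830960-5835079 and chr19:5843698-5845217. The first had 1161, 118, 1137 and 690.5 in APP-GFP astrocytes and 1334, 841, 1435, 2206 and 1806 in APP-SOCS3 astrocytes (log2 fold change 1.34, adjusted p = 0.793, limma), and passed the unadjusted test with overlapping groups. The Neat1 row had a log2 fold change of 0.53 and did not pass.

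Loci of the ribosomal RNA repeat varied widely between samples of a group. The locus chr17:39842997-39848829 lies at Gm26917, CT010467.1, Gm42418 and AY036118. It had 46582, 8214, 29893 and 9315 in APP-GFP astrocytes and 25606, 7361, 56338, 43229.6 and 16497 in APP-SOCS3 astrocytes, and 32957, 29284 and 31974 in GFP- cells. The higher of the paired rows at chr11:109011640-109012117 had 10616, 748, 4239 and 463 in APP-GFP and 3356, 505, 7149.9, 4913 and 659 in APP-SOCS3 astrocytes. At both loci APP-GFP 1 and 3 and APP-SOCS3 1, 3 and 4 were above the other samples from APP mice, and neither locus passed the test between these groups.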

How the data were processed

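RNA of sorted cells was converted and amplified by the authors with a kit for low inputs and sequenced as paired reads. Per the labels and the methods, reads were mapped to mm10 with STAR 2.4.0, counted on constitutive regions of a FAST DB annotation and normalized with DESeq2. The deposited signal per row is the read count divided by 1 size factor per sample, and whole reads were recovered for 100% of values (tolerance 0.1 read). The strand setting of counting and the treatment of reads that match several places are not given in the sources used here. 

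The unnamed loci, lists and tests were chosen with earlier results of these data known. Loci were placed on the GENCODE M21 annotation of the same build, in which 9929 of 9933 symbols found overlapped their row. Sequences of transcripts were compared with blastn 2.17.0. Levels were compared as log2(level + 1) with limma 3.58.1 (mean-variance trend) in R 4.3.3, for rows with a mean of at least 10 in either group, and fold changes are on that scale, which understates changes of low rows. Ratios of means are on the linear scale. Rows were called at a fold change of 1.5 or more and p not above 0.05, with Benjamini-Hochberg adjustment over all rows beside it. Exact 2-sided permutation tests used mean log2 levels. Alternatives used edgeR 4.0.16 and DESeq2 1.42.0 on whole reads. The tests were tested on simulated data.

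Loci named are the 10 highest in WT-GFP astrocytes, up to 5 called loci per direction with the smallest p and no overlap between APP-SOCS3 and APP-GFP astrocytes, the 5 highest and 5 lowest ratios of APP-GFP astrocytes to GFP- cells, the longest and shortest, those at the threshold and the least detected. Others are said to be chosen after their values were seen, which also holds for Gm1821, Gm6055, the pseudogene pairs, the list overlaps and the ribosomal RNA loci. Marker lists of astrocytes, microglia, endothelial, mural, neuronal and oligodendroglial cells and perivascular macrophages, and a list of lncRNAs, were written from general knowledge.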

Additional observations from a re-analysis of the deposited data

Results flagged for a closer look

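In 198 groups of 4, 5 or 7 samples over the loci described, 24 sample values lay far from the rest of their group by Dixon's test of the gap to the nearest sample. The rate of about 1 in 20 groups by chance holds for independent groups of normally distributed values. Levels were used here without a log, some loci may share reads, and some were chosen for extreme values or poor detection. The 24 therefore cannot be set against that rate, and no explanation was tested. WT-GFP 2 held 8 of the 24, all of them high. It was at 63059 at the Gm29216 locus (chr1:24615710-24615972, nearest sample 31832), 45079 at mt-Nd2 (chrM:3845-5171) and 15988 at mt-Nd1 (chrM:3401-3555). It was also at 7988 at Hspa1a (chr17:34969784-34971386), 711 at Rel (chr11:23736852-23740359), 237 at Pantr1 (chr1:42693032-42694825), 523.5 at Prkce (chr17:86178607-86180253) and 723 at Man1a2 (chr3:100568319-100572066, nearest sample 31.6). Other WT-GFP values were 13488 (low) at Itm2b (chr14:73362226-73362789) and 2052 (high) at Neat1 (chr19:5843698-5845217) in WT-GFP 7, 406 at chr2:75638132-75651240 in WT-GFP 3, and 379 at chr2:37532776-37535537 in WT-GFP 6.

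Among APP-GFP samples, APP-GFP 4 stood out at 23427 at Itm2b and at 19.2 at chr6:86004381-86009344, where the other APP-GFP samples were at 0, and APP-GFP 2 at 363 at Inpp5d (chr1:87718606-87720869, nearest sample 163). Among APP-SOCS3 samples, APP-SOCS3 5 was low at Hspa1a (214, nearest 682) and high at Fmn2 (613, nearest 393), Plcl1 (432, nearest 200) and Rapgef2 (293, nearest 85.3). APP-SOCS3 2 was high at Socs3 (1377, nearest 590.1) and F3 (918, nearest 629) and low at Pantr1 (45.6, nearest 112.5). APP-SOCS3 1 was at 61.8 at Rel and APP-SOCS3 4 at 98.0 at chr2:37532776-37535537. Hspa1a, Fmn2, Plcl1, Inpp5d and Socs3 are among the loci that passed the test of APP-SOCS3 against APP-GFP. Without the sample that stood apart, the log2 fold change was -2.07 for Hspa1a and 0.63 for Fmn2 (without APP-SOCS3 5), -1.56 for Inpp5d (without APP-GFP 2) and 1.54 for Socs3 (without APP-SOCS3 2), each still called, and Plcl1 lost its call (without APP-SOCS3 5).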

How the results depend on the processing

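Against 46 loci higher in APP-SOCS3 than in APP-GFP astrocytes, the count was 30 with a minimum mean level of 100, 25 by edgeR, 27 when replicate numbers entered the fit as a block, 0 after Benjamini-Hochberg adjustment and 5 among loci that overlap no GENCODE gene. Leaving out 1 sample at a time gave 17 (without APP-SOCS3 5) to 94 (without APP-GFP 4). Against 23 lower loci, it was 0 after adjustment, 0 among loci that overlap no GENCODE gene, and 13 (without APP-GFP 3) to 26 (without APP-GFP 4) on leaving out 1 sample. Of the 69 loci called, 42 were also called by edgeR and 53 by DESeq2. For APP-GFP astrocytes against GFP- cells, equal upper quartiles gave 604 higher and 78 lower loci, edgeR gave 135 lower, and loci that overlap no GENCODE gene gave 28 and 3. For APP-SOCS3 astrocytes against GFP- cells, equal upper quartiles gave 899 and 113, all 19 samples in one fit gave 180 lower, and loci that overlap no GENCODE gene gave 54 and 5. The causes of the other shifts were not tested, and the last set is smaller by construction. Calls among all rows were not counted under these alternatives, so the counts of loci have no background beside them. Leaving out 1 sample gave 263 to 428 higher and 159 to 267 lower loci for APP-GFP and 456 to 556 higher and 232 to 277 lower for APP-SOCS3 astrocytes. The median log2 ratio of WT-GFP astrocytes to GFP- cells was 0.20 with equal totals and 0.33 to 0.43 on leaving out 1 sample. The share of loci in a gene was 86.3% when at least 50% of the locus had to overlap. The number of loci was 1377 by medians, 1509 with equal totals and 1515 to 1592 on leaving out 1 WT-GFP sample. Of the 10 loci named in that comparison of APP-SOCS3 with APP-GFP, 7 kept their call and direction under the alternatives run, and Fmn2 lost its call under 1, Inpp5d under 1 and Plcl1 under 3. The replicate numbers share only a number, since deviations of same-numbered samples correlated at -0.02 to 0.089 and not every sample correlated best with its own number. At 19331876 reads or more per sample, detection required more than 3 reads.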
